A study of Mus musculus with 6 samples.

Results

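The genes described here are 9 cathepsins (Ctsa, Ctsb, Ctsc, Ctsd, Ctsf, Ctsh, Ctsk, Ctsl and Ctsz) and legumain (Lgmn), 10 of the 19938 genes that could be named on 6 Affymetrix Mouse Gene 1.0 arrays. They were taken by symbol from the probe sets that carry a single gene symbol, and each of the 10 had 1 such probe set. By catalytic class 8 are cysteine proteases (7 of the papain family, and Lgmn of the legumain family), Ctsd is an aspartic protease and Ctsa a serine carboxypeptidase. The arrays compare a dendritic population (3 arrays) with a macrophage population (3 arrays). Both came from tibia and femur marrow of C57B/6 mice grown for 6 days in 20 ng/ml recombinant GM-CSF, a cytokine that drives myeloid growth and differentiation, and neither was stimulated. The labels give neither the surface markers used to part the populations nor the source of each replicate. The p-values thus rest on how far these 6 samples scatter, and that scatter could be technical. Transcripts were measured, not protein or enzyme activity.

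Cathepsins are made as inactive proenzymes, tagged with mannose 6-phosphate in the Golgi, sorted to endosomes and lysosomes, and activated there at low pH. In antigen-presenting cells they break down ingested protein, trim the invariant chain from MHC class II molecules, and cleave endosomal Toll-like receptors. Macrophages are known for strong lysosomal proteolysis, and dendritic cells for limiting it, which spares peptides for presentation.

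Marker genes are given as a description. Their lists were chosen with earlier results of these data known, so they cannot check the population names. Of 12 dendritic markers 11 were higher in the dendritic arrays and 1, Xcr1, was not called. All 11 measured macrophage markers were lower. A set of 12 neutrophil markers was brightest on replicate 1 of both populations. Its summed linear signal was 5522, 3422 and 2227 on dendritic replicates 1 to 3, against 6603, 2646 and 3239 on macrophage replicates 1 to 3. Of the 12, Csf3r (-2.93 ± 0.39, limma adjusted p = 0.000577) and Mpo (-0.74 ± 0.19) were lower and 10 were not called. Markers of eosinophils, basophils and mast cells (12 measured) and of erythroid cells and progenitors (9 measured) gave no call by limma. The summed linear signal of the first list was uneven within the macrophage population (242 to 593), against 273 to 391.5 on the dendritic arrays. In it Prg2 had log2 values of 8.37, 4.35 and 6.41 on macrophage replicates 1 to 3. At an unadjusted p under 0.05 the first list had 1 lower and 1 higher gene and the second 0. Of 10 measured markers of T and NK cells 1 was higher, Cd8a, which some dendritic cells carry. Of 11 markers of B and plasmacytoid cells 2 were higher, Cd79a and Bst2, and of 6 osteoclast markers 2 were lower, Acp5 and Dcstamp.

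Most of these protease genes had a lower signal in the dendritic arrays and none had a higher one. At a limma adjusted p under 0.05, 9 of 10 were lower, where 11.6% of all genes were called lower, 9.98% higher and 21.6% in either direction. None was higher at an unadjusted p under 0.05 either. Of the 9, 6 were lower by a log2 difference of at least 1 (5.82% of all genes) and 4 by at least 2 (2.06%). These 4 were Ctsl, Ctsd, Ctsk and Ctsa, so the 3 catalytic classes were each represented among the largest differences. The gene not called was Ctsh. For the same 9 every dendritic array lay below every macrophage array, as it did for 16.7% of all genes, while the reverse held for 17.3% of all genes and none of the 10. The median log2 difference of the 10 was -1.53, against 0.03 over all genes. All differences are dendritic minus macrophage on the log2 scale of the deposited values, ± SE, with n = 3 arrays in each population. In bulk RNA, fewer cells that express a gene and less RNA per cell cannot be told apart.

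**Figure D1:**
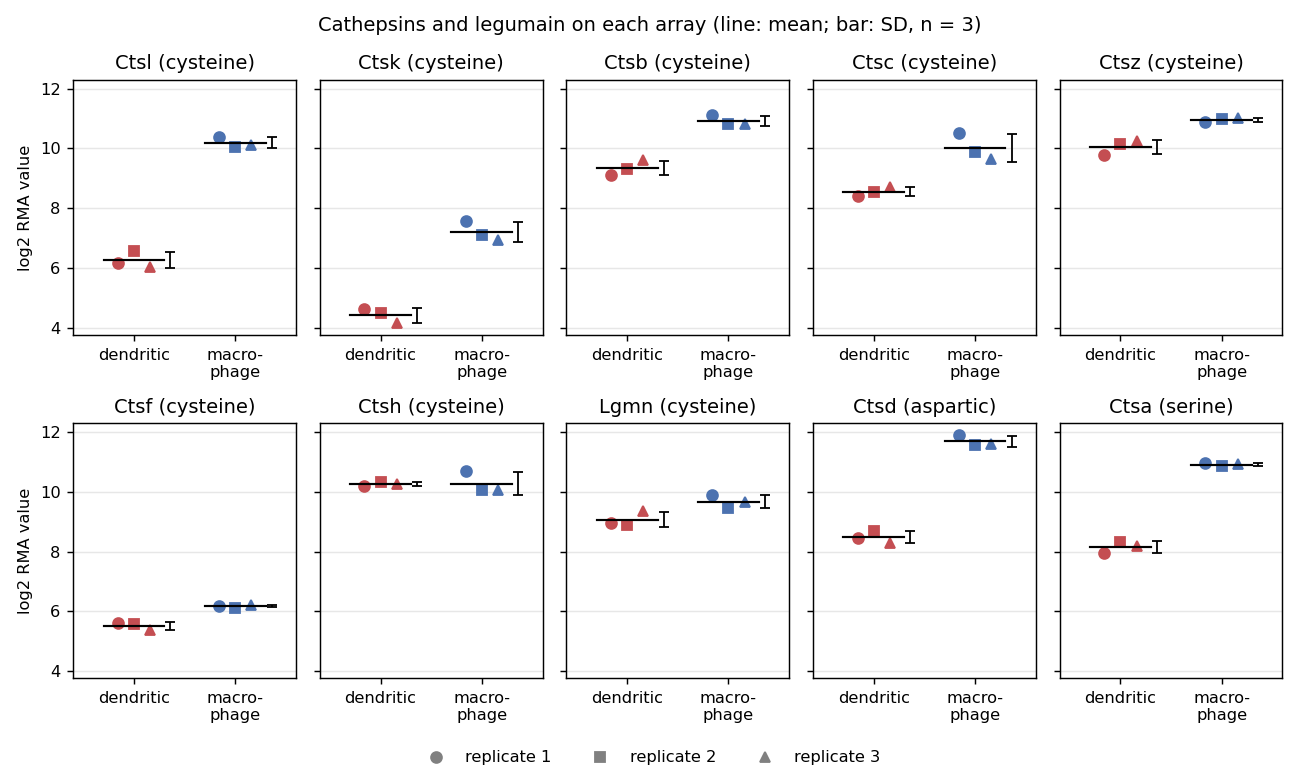
Log2 RMA value (y axis) of each of the 10 genes on the dendritic (red) and macrophage (blue) arrays, with markers for replicates 1 to 3, a line at the mean and a bar of ±1 SD (n = 3). The populations lie apart for 9 genes, most widely for Ctsl, and overlap for Ctsh.

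Ctsl encodes cathepsin L, an endopeptidase that degrades the invariant chain in thymic epithelium and takes part in lysosomal protein turnover in many cells. Its log2 values were 6.16, 6.55 and 6.04 on the dendritic arrays, against 10.39, 10.05 and 10.12 on the macrophage arrays. The brightest dendritic array thus lay 3.49 below the dimmest macrophage array. The log2 difference was -3.93 ± 0.17 (95% interval -4.31 to -3.55, limma adjusted p = 7.71e-07), a 15.3-fold lower signal. Only 78 of the 19938 genes had a difference further below 0.

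Ctsk encodes cathepsin K, the collagen-degrading protease of osteoclasts, which macrophages and multinucleated cells can also express. It had log2 values of 4.62, 4.49 and 4.14 on the dendritic arrays and of 7.56, 7.11 and 6.92 on the macrophage arrays. The populations lay 2.30 apart at their nearest arrays. The log2 difference was -2.78 ± 0.20 (adjusted p = 1.34e-05). The dendritic mean of 4.42 is below the median of all probe sets on every array (4.79 to 4.96). No detection calls were used here, so a low level of Ctsk in the dendritic arrays cannot be told apart from none, and the size of its difference may be only a lower bound. Beside it, the summed linear signal of 6 osteoclast markers was 161.5 to 226 on the dendritic arrays, against 656 to 1035 on the macrophage arrays. A linear sum is weighted to the brightest genes. Of the 6, Acp5 and Dcstamp were called lower, 4 were not called, and the median log2 difference was -0.05. Their part in the Ctsk difference was not tested.

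Cathepsin B, encoded by Ctsb, is an abundant lysosomal protease that cuts both within proteins and from their carboxyl end. Its log2 values were 9.12, 9.30 and 9.59 on the dendritic arrays, against 11.12, 10.82 and 10.82 on the macrophage arrays. No arrays overlapped, and the log2 difference was -1.59 ± 0.16 (adjusted p = 0.000115). Ctsf, encoding cathepsin F, which can degrade the invariant chain in mouse macrophages, differed less. It stood at 5.59, 5.56 and 5.37 on the dendritic arrays, and at 6.18, 6.12 and 6.22 on the macrophage arrays. Its log2 difference was -0.66 ± 0.12 (adjusted p = 0.00399), a 1.58-fold lower signal on tightly grouped arrays.

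Ctsc, Ctsz and Ctsh act mainly on the ends of proteins. Ctsc encodes cathepsin C, or dipeptidyl peptidase I, which removes dipeptides and thereby activates granule serine proteases. Its log2 values were 8.39, 8.54 and 8.69 on the dendritic arrays, against 10.52, 9.88 and 9.63 on the macrophage arrays. The macrophage arrays were spread over 0.89, the widest range of the 10 genes in either population, yet all lay above the dendritic ones. The log2 difference was -1.47 ± 0.22 (adjusted p = 0.00116), or -1.21 (adjusted p = 0.00071) without macrophage replicate 1, the brightest array. Ctsz encodes cathepsin Z, a carboxypeptidase. It had 9.78, 10.14 and 10.24 on the dendritic arrays and 10.89, 10.97 and 11.01 on the macrophage arrays, a log2 difference of -0.91 ± 0.15 (adjusted p = 0.00203).

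Ctsh encodes cathepsin H, an aminopeptidase, and was the exception. Its log2 values were 10.20, 10.32 and 10.27 on the dendritic arrays, against 10.71, 10.06 and 10.05 on the macrophage arrays. Macrophage replicate 1 lay above all dendritic arrays and the other macrophage arrays below all of them. The log2 difference was -0.01 ± 0.19 (adjusted p = 0.987). Its 95% interval ran between -0.43 and 0.41. Without macrophage replicate 1 it was 0.21 (adjusted p = 0.426), still not called. The interval of Ctsh held none of the other 9 differences, of which that of Lgmn (-0.61) was the nearest. It did overlap the 95% intervals of Lgmn (-0.99 to -0.22) and Ctsf (-0.94 to -0.39). Whether Ctsh differed from either was not tested.

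Lgmn encodes legumain, also called asparaginyl endopeptidase, which cuts after asparagine, processes several cathepsins to their 2-chain forms and can make early cuts in antigens and the invariant chain. Its log2 values were 8.97, 8.89 and 9.34 on the dendritic arrays, against 9.89, 9.47 and 9.65 on the macrophage arrays. The highest dendritic array was only 0.13 below the lowest macrophage array. The log2 difference was -0.61 ± 0.17 (adjusted p = 0.0307), a 1.52-fold lower signal. This call was lost in 8 of 16 alternative settings (adjusted p 0.0149 to 0.112). It did not hold when a single array was left out if that array was replicate 1 (0.0674) or 2 (0.111) of the dendritic population, or replicate 1 (0.0939) or 3 (0.0799) of the macrophage population.

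Among the other classes, Ctsd encodes cathepsin D, the main aspartic protease of lysosomes, which also processes prosaposin. Its log2 values were 8.47, 8.68 and 8.28 on the dendritic arrays, against 11.90, 11.57 and 11.59 on the macrophage arrays. The populations lay 2.90 apart at their nearest arrays. The log2 difference was -3.21 ± 0.15 (adjusted p = 1.43e-06), a 9.28-fold lower signal. Ctsa encodes cathepsin A, a serine carboxypeptidase that also holds beta-galactosidase and neuraminidase 1 in a protective complex. It had 7.94, 8.33 and 8.17 on the dendritic arrays and 10.95, 10.85 and 10.91 on the macrophage arrays. The macrophage arrays agreed to within 0.10, and the log2 difference was -2.76 ± 0.14 (adjusted p = 1.72e-06), a 6.75-fold lower signal.

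The differences ran across the catalytic classes. The 8 cysteine proteases spanned -3.93 (Ctsl) to -0.01 (Ctsh) with a median of -1.19, and the single aspartic (-3.21) and serine (-2.76) proteases fell inside that span. To set members against each other, the log2 value of Ctsd was subtracted from that of each other member on the same array, and this gap was compared between populations for 9 pairs. The dendritic and macrophage gaps did not overlap in any of the 9, nor did they for 99.2% of all other genes, since Ctsd itself differed so widely, and nothing is read from that count. The sizes of the gaps are given as a description. Their SE and 95% intervals come from a pooled variance and a t distribution. They assume normal scatter and are not read as a test. The exact 2-sided permutation p was 0.10 for each pair, also after adjustment over the 9, which is the smallest that 3 against 3 arrays can give, so no pair could reach 0.05. Ctsl was lower than Ctsd by a further -0.72 ± 0.06 (95% interval -0.87 to -0.57). Ctsa lay 0.46 ± 0.15 (interval 0.05 to 0.87) above it. Ctsk gave 0.44 ± 0.14, a value that rests on its dim dendritic signal and so has no firm place in the order. The other cysteine proteases lay further above Ctsd, from 1.63 ± 0.23 for Ctsb to 3.21 ± 0.15 for Ctsh. Lgmn lay 2.61 ± 0.25 above it.

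**Figure D2:**
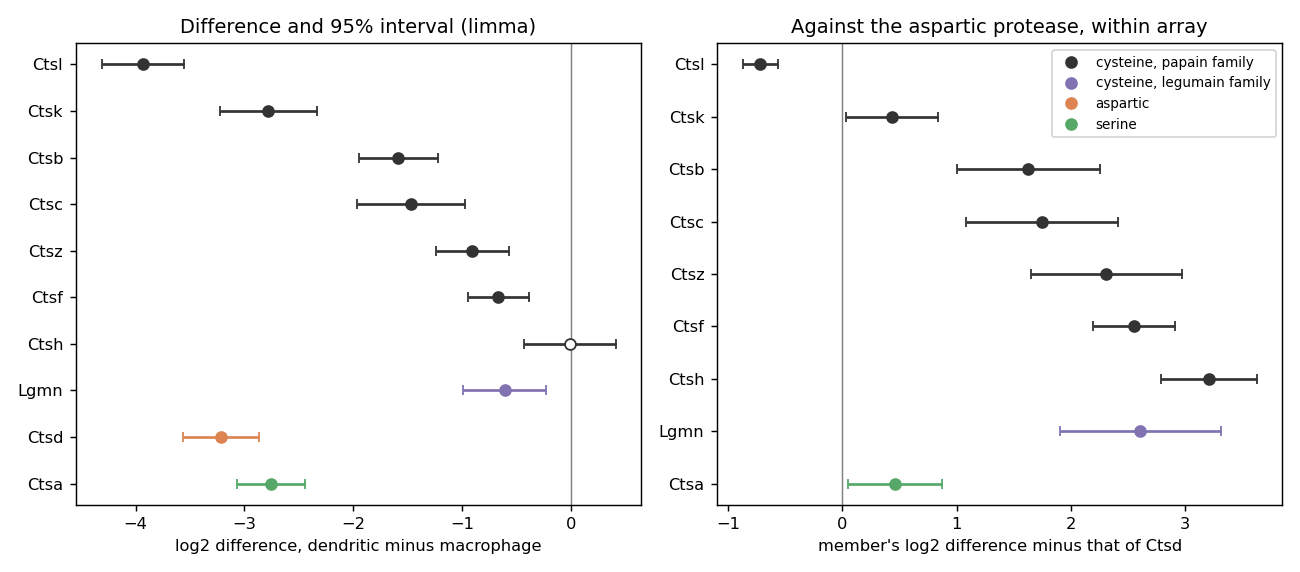
Left, log2 difference (dendritic minus macrophage, x axis) of each gene with its 95% interval from limma, coloured by catalytic class, with an open point for the gene not called. Right, each gene's difference minus that of Ctsd, from values paired within an array, with its 95% interval from a t distribution with pooled variance. Ctsl lies below Ctsd, the others lie above it, and Ctsh lies furthest from it at 3.21, while the dim dendritic signal of Ctsk leaves its place uncertain.

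The replicates did not deviate evenly. Macrophage replicate 1 was the brightest macrophage array for 8 of the 10 genes, as it was for 30.7% of all genes, with the exceptions of Ctsz and Ctsf. Its deviation from the macrophage mean was 0.51 for Ctsc, 0.44 for Ctsh and 0.36 for Ctsk, and at most 0.22 for the other 7. On the same array the neutrophil markers (6603 summed) and Prg2 (log2 value 8.37) were at their highest, and their part in these deviations was not tested. Dendritic replicate 1, which had the highest neutrophil marker sum of its population, was the dimmest dendritic array for Ctsa, Ctsb, Ctsc, Ctsh and Ctsz. It also had the lowest median over all probe sets (4.79, against 4.96 and 4.84 on dendritic replicates 2 and 3). The share of all genes dimmest on that array was not computed, so nothing is read from these genes. With both arrays numbered 1 left out, which was tried only after the values were known, 8 of the 10 genes were called lower and Lgmn (adjusted p = 0.112) was not.

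**Figure D3:**
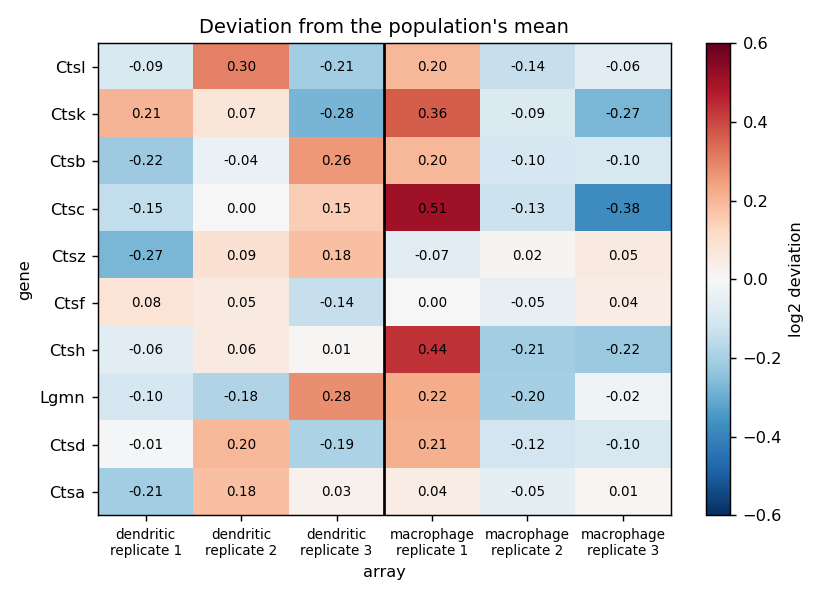
Deviation of each gene (rows) on each array (columns) from the mean of its population, in log2 units. Macrophage replicate 1 holds the largest values, 0.51 for Ctsc and 0.44 for Ctsh.

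The genes with the most similar profiles were found by the root mean square distance of centred log2 values over the 6 arrays. Nearest to Ctsl were Emb (embigin, a cell surface glycoprotein) at a distance of 0.07, Cfp (properdin, of the complement system) at 0.13 and Mertk (a receptor for apoptotic cells) at 0.18. Ctsf lay nearest to Lamp1, a major lysosomal membrane protein (0.03), and Ctsk to Man2b1, the lysosomal alpha-mannosidase (0.09). Ctsd lay nearest to Gpx3 (0.10), Ctsa to Best1 (0.07), Ctsb to Pnpla7 (0.10) and Ctsc to Plpp3 (0.11). Ctsz lay nearest to Sh2b2 (0.05), Lgmn to Dhx40 (0.09) and Ctsh to Ifit3b, an interferon-induced gene (0.06). These are descriptions over 6 arrays that fall into 2 groups.

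Promoter sequence is shown because 9 genes were lower together and because many lysosomal genes carry an element built around the E-box CACGTG, to which the MiT/TFE transcription factors bind. RefSeq (GRCm38.p6) gave 10 start sites for 8 of the 10 genes, with none for Ctsb and Ctsh, and the 250 bases upstream of each were searched on both strands. CACGTG occurred in 5 of the 10 windows, 1 each for Ctsa, Ctsd, Lgmn, Ctsl and Ctsf, against 6.02% of 32851 windows of all genes. CACGTGA, which always contains CACGTG, occurred in 3 (3.13% of all windows). The AP-1 letters TGANTCA occurred in none (6.75% of all), and the Ets letters GAGGAA in 2, those of Ctsk and Ctsc (23.3% of all). A match is a description of letters, not of binding. The windows of Ctsz and Ctsc and those of the other start sites of Ctsa and Lgmn held no CACGTG, nor did that of Ctsk, one of the 4 genes with the largest differences.

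The whole upstream window of Ctsd, the only one with 2 copies, was chr7:142387828-142388077 on the minus strand, and capitals mark CACGTG, 245 and 98 bases before the start site.
Ctsd: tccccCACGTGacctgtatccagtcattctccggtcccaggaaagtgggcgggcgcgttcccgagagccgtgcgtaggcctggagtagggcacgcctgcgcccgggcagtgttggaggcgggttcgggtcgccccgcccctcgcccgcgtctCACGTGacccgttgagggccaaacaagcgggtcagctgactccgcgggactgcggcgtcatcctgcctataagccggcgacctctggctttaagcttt

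Stretches around CACGTG in the other 4 genes, each read 5′ to 3′ on the gene's strand, allow the flanking bases to be compared. They lie at chr2:164833749-164833772 (plus strand, 12 bases before a start site of Ctsa), chr12:102439124-102439153 (minus strand, 49 bases before a start site of Lgmn), chr13:64370739-64370768 (minus strand, 236 bases, Ctsl) and chr19:4855074-4855103 (plus strand, 79 bases, Ctsf).
Ctsa: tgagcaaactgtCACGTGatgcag
Lgmn: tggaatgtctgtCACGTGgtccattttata
Ctsl: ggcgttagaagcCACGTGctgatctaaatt
Ctsf: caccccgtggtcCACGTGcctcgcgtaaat

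The other genes of the cathepsin system were read from 12 lists, of whose 115 genes 105 were measured. Of these 44 were lower and 9 higher, where 11.6% of all genes were called lower and 9.98% higher, so the 9 higher were no more than that share. The same shares apply to each list below, and counts of 1 to 3 in the larger lists are near them. Where a gene's mean in one population was below the array medians (Ctse, Cst7, Tfec, Tlr7 and Tlr8 in the dendritic arrays, H2-Eb2 in the macrophage arrays), the size of its difference may be only a lower bound. Among the other cathepsins and napsin, 3 of 6 were lower and none higher (median -0.56). Ctss (cathepsin S, the main invariant chain protease of marrow-derived antigen-presenting cells) had 11.12, 11.17 and 11.03 on the dendritic arrays, against 11.97, 11.80 and 11.70 on the macrophage arrays. Its log2 difference of -0.72 ± 0.13 (adjusted p = 0.00319) was smaller than those of Ctsl, Ctsd, Ctsk and Ctsa, a gap that was not tested. Ctse (cathepsin E, an endosomal aspartic protease) differed by -1.69 ± 0.30. Ctso (-1.43 ± 0.40, adjusted p = 0.0322) had 6.67 on dendritic replicate 1 and 5.24 and 4.94 on the other dendritic arrays, and lost its call in 6 of 16 alternatives (adjusted p 0.000109 to 0.124). None of 6 placental cathepsins, which lie in a cluster in the mouse genome, was called by limma, in the fit reported here or in the 14 alternatives that tested them (the filters on low levels left them out), and 0 had an unadjusted p under 0.05.

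Of 5 other lysosomal peptidases 3 were lower and 1 higher. Tpp1 (tripeptidyl peptidase 1, -1.75 ± 0.14), Dpp7 (dipeptidyl peptidase 7, -1.62 ± 0.16) and Cpq (a carboxypeptidase, -1.21 ± 0.20) were lower. Scpep1, a serine carboxypeptidase related to Ctsa, was higher by 0.62 ± 0.13 (adjusted p = 0.00849), with 10.43, 10.24 and 10.56 on the dendritic arrays and 9.73, 9.79 and 9.86 on the macrophage arrays. The related carboxypeptidases Scpep1 and Ctsa thus differed in opposite directions, each with no overlap between populations.

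Most inhibitors were dim in both populations and were not called. Of 14 measured inhibitors of cysteine proteases 2 were lower, 1 was higher and 11 were not called (median 0.05). The means of these 11 lay below the array medians (4.79 to 4.96) in both populations. Their lack of a call, and the list's median, thus cannot be told apart from lack of signal. Cst3, which encodes the secreted inhibitor cystatin C, was higher by 0.52 ± 0.11 (adjusted p = 0.0091). It stood at 12.11, 12.15 and 12.11 on the dendritic arrays and at 11.65, 11.58 and 11.58 on the macrophage arrays, and its call was lost without macrophage replicate 2 (adjusted p = 0.0514, the highest of its 16 alternatives). Cstb (cystatin B, in the cytosol) was lower by -0.69 ± 0.14 (adjusted p = 0.00741). Cst7 (cystatin F, which inhibits cathepsin C in immune cells) differed by -0.79 ± 0.22 (adjusted p = 0.0338) and lost its call in 7 of the 15 alternatives that tested it (0.0029 to 0.115).

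Of 12 measured genes of the mannose 6-phosphate sorting route 2 were lower, 3 higher and 7 not called (median -0.28), a lower count near the share over all genes. Igf2r, the large mannose 6-phosphate receptor, was lower by -2.31 ± 0.17 (adjusted p = 2.01e-05), with 5.31, 5.10 and 4.71 on the dendritic arrays against 7.29, 7.54 and 7.24 on the macrophage arrays. Nagpa, which uncovers the mannose 6-phosphate tag, was lower by -1.11 ± 0.12. Of the adaptors that load receptors into carriers at the Golgi, Gga2 was higher by 1.90 ± 0.25 and Gga3 by 0.97 ± 0.12. Gga1 (-0.22 ± 0.12, limma adjusted p = 0.28) was not called, though its dendritic arrays all lay below its macrophage arrays. Gnptg (0.68 ± 0.13), a subunit of the enzyme that makes the tag, was higher. The small receptor M6pr was not analysed here.

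Partners of cathepsin A and related genes were all lower, 6 of 6, with a median of -1.12. Grn (progranulin, which cathepsins cut into granulins) was lower by -2.36 ± 0.12, Psap (prosaposin) by -2.01 ± 0.14 and Galns by -1.18 ± 0.20. The other three were Neu1, Glb1 and Smpd1, from -1.06 to -0.72. Of 12 measured lysosomal membrane and transport genes 8 were lower and none was higher, led by Cd68 (-3.82 ± 0.26), Npc1 (-1.93 ± 0.14) and Lamp2 (-1.61 ± 0.15). Cd68 was also among the macrophage markers above. Of 13 osteoclast genes 7 were lower, with Atp6v0d2 (-5.28 ± 0.31), Acp5 (-3.53 ± 0.23) and Dcstamp (-2.37 ± 0.21) first. Tnfrsf11a, the receptor for the osteoclast cytokine RANKL, was higher by 1.97 ± 0.14. Calcr, the calcitonin receptor of mature osteoclasts, was not called (4.11 in the dendritic and 4.12 in the macrophage mean).

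All 6 measured transcription factors with a role at lysosomal genes or in macrophage gene expression were lower (median -0.71). Tfec differed by -4.77 ± 0.19 (adjusted p = 6.87e-07) and Mitf by -2.35 ± 0.20 (adjusted p = 4.14e-05). Both belong to the MiT/TFE family. Tfeb, its best known regulator of lysosomal genes, had 5.60, 5.92 and 6.12 on the dendritic arrays, against 6.46, 6.56 and 6.52 on the macrophage arrays. Its difference of -0.64 ± 0.15 (adjusted p = 0.0158) was not called without macrophage replicate 2 or 3 (range over the alternatives 0.00516 to 0.0659). Tfe3, of the same family, had an adjusted p of 0.0161 and was not called without dendritic replicate 2 or macrophage replicate 1 or 3. The count of 6 lower was 4 without macrophage replicate 3. Spi1, which encodes PU.1, differed by -0.78 ± 0.14.

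In the list of MHC class II and related genes, most of them not cathepsin substrates, 2 of 11 were lower, 2 higher and 7 not called, near the shares over all genes. Cd74, the invariant chain that cathepsins degrade, had 11.54, 11.48 and 11.48 on the dendritic arrays, against 11.83, 11.71 and 11.64 on the macrophage arrays. No arrays overlapped, but its difference of -0.23 ± 0.12 was not called (adjusted p = 0.255). The class II chain H2-Eb2, also among the dendritic markers above, was higher by 3.59 ± 0.20, as was H2-Oa, a chain of the peptide-loading modulator, by 1.93 ± 0.27. The peptide-loading chain H2-DMa (-1.06 ± 0.25) was lower. Cd1d1, a lipid-presenting molecule, differed by -0.78 ± 0.22 and lost its call in 9 of 16 alternatives (adjusted p 0.0069 to 0.135). Of 6 endosomal Toll-like receptor genes 4 were lower, among them Tlr7 (-4.52 ± 0.15), Tlr8 (-3.75 ± 0.36) and the trafficking chaperone Unc93b1 (-2.33 ± 0.16). Tlr9 differed by 0.48 ± 0.13 (adjusted p = 0.0293) and was called in 9 of 16 alternatives (0.0162 to 0.0999). Among 9 granule protease genes activated by Ctsc or stored with such proteases, 8 were not called. The exception was Mpo (-0.74 ± 0.19, adjusted p = 0.0207), myeloperoxidase, itself no protease, whose call was lost in 7 of 16 alternatives (0.00983 to 0.0858). Means of Ctsg, Gzma, Gzmb, Cma1 and Tpsb2 lay below the array medians (4.79 to 4.96) in both populations. For these, no call cannot be told apart from no signal. Dendritic and macrophage means were 5.38 and 5.55 for Elane, 5.58 and 5.35 for Prtn3, and 4.82 and 4.48 for Mcpt8.

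**Figure D4:**
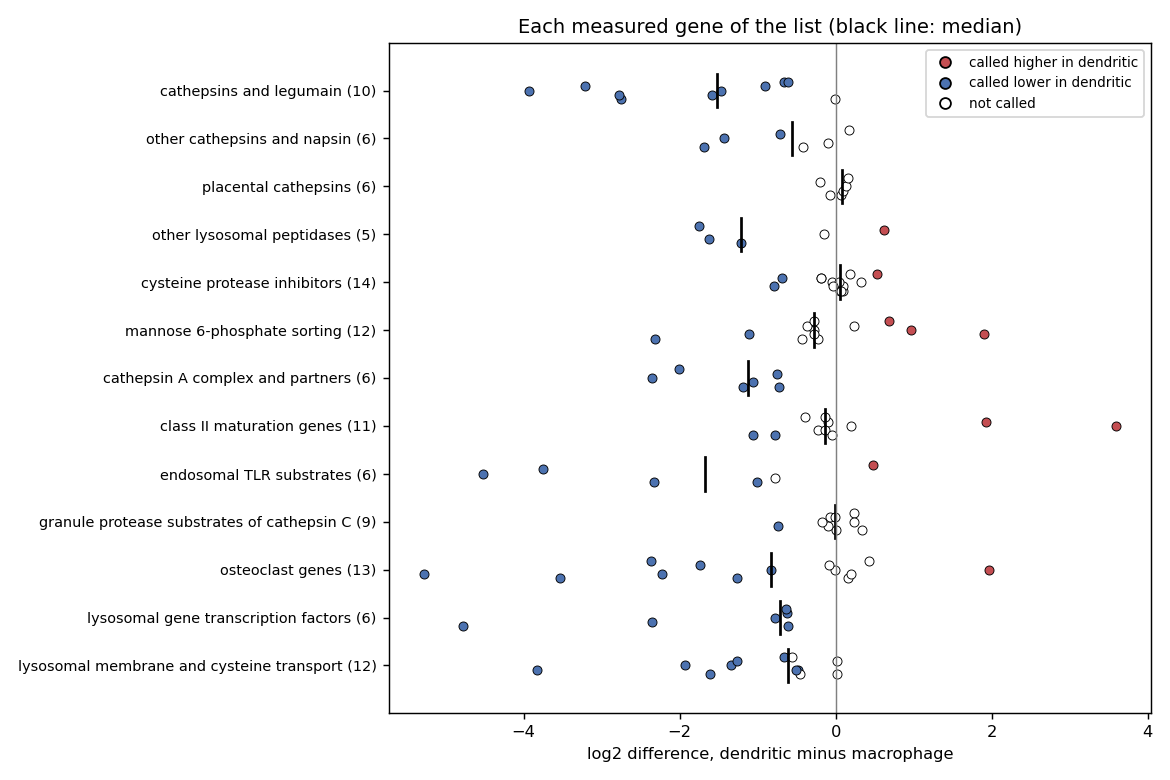
Log2 difference (dendritic minus macrophage, x axis) of every measured gene of the cathepsin and legumain set and of the 12 lists, with the number measured in brackets, filled red where called higher, blue where called lower and white where not called. The black line is the list's median, which runs from -1.67 for the endosomal Toll-like receptor genes to 0.08 for the placental cathepsins, and is -1.53 for the cathepsins and legumain.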

How the data were processed

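The authors deposited log2 values. Per the submitters' processing notes, RMA (background correction, quantile normalization, probe summary) was run in R 3.0.2. Neither the probe set definition nor a genome build or filter is given in the sources used here, and the number of arrays limits the precision. Of 35556 probe sets 21789 had 1 symbol, 1621 several and 12146 none in the platform's gene table. Each gene was represented by its probe set of highest mean, leaving 19938. Symbols were checked in RefSeq (GRCm38.p6).

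limma 3.58.1 in R 4.3.3 (lmFit, eBayes, 2-sided) was fitted to all genes with the population as the only term and Benjamini-Hochberg adjustment over them. On simulated data of 19938 genes it recovered 7 of 67 genes changed by 0.5, 64 of 67 by 1 and 66 of 66 by 2 (log2), with 9 false calls of 146. Only these genes were changed there, with independent errors, whereas 21.6% of all genes were called in the data. The shares recovered therefore need not hold for the data. Member pairs were compared by exact permutation. Python 3.11.15 was used with pandas 2.3.3, scipy 1.17.1 and matplotlib 3.10.9.

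The replicate numbers may pair the samples, since deviations of same-numbered arrays correlated at 0.385, 0.147 and 0.272. The fit reported here and the permutation test of member pairs did not use this pairing. It entered the fit only as the replicate block, an alternative. One unmatched pair, dendritic 2 and macrophage 3, reached 0.155, and the meaning of the numbers is not in the labels. The members, lists and tests were chosen with earlier results of these data known. Named are all members, up to 3 called genes per list and direction, some genes named whatever their values, and nearest profiles. Xcr1, Csf3r, Prg2, Gga1, Tfe3 and called genes of the other marker lists, Scpep1's relation to Ctsa and Calcr were singled out after their values were seen. Alternatives were a replicate block, leaving out each array, 2 level filters, 2 renormalizations, all probe sets, probe set means, another variance model and array weights.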

Additional observations from a re-analysis of the deposited data

How the results depend on the processing

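Ctsl, Ctsd, Ctsk, Ctsa, Ctsb, Ctsc, Ctsz and Ctsf were called lower in all 16 alternatives, and Lgmn in 8. Not all of these settings could move a member. With 1 probe set for each member, probe set means left its values unchanged. The level filters, all probe sets, the other variance model and the replicate block left its difference unchanged, and altered only its SE and adjusted p. The members called lower numbered 8 to 9 when single arrays were left out and 9 with the replicate block. The block changed no call of a member, and left 49 list genes lower, against 44 without it, and 9 higher. Lgmn differed by -0.55 (adjusted p = 0.0558) with centring on the 75th percentile, by -0.41 (0.0668) with array weights, and had an adjusted p of 0.0707 when all probe sets were tested. Ctsh was not called in any alternative, and its sign changed with some, from -0.12 to 0.24. Over all lists together 38 to 44 genes were lower and 7 to 10 higher when 1 array was left out. Lists with counts of 1 or 2 moved most, such as 4 sorting genes lower with array weights, against 2. The cause of these changes was not tested.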

Other observations

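The genes next to the cathepsins were also read. In RefSeq order (GRCm38.p6, by start position) each of the 10 genes has a protein-coding neighbour on either side, and all 20 were measured. Of these, 7 were lower, 1 was higher and 12 were not called, where 11.6% of all genes were called lower. Both neighbours of Ctsa were much lower: Neurl2 had a mean of 4.96 in the dendritic arrays and 7.54 in the macrophage arrays (-2.58 ± 0.27, limma adjusted p = 0.000135), and Pltp, the phospholipid transfer protein, 5.59 and 9.74 (-4.16 ± 0.49, adjusted p = 0.000307). Ctsl lay between Prxl2c (-1.01 ± 0.24) and Cdk20 (-0.70 ± 0.15), both lower by far less than Ctsl itself. Ctsk lay between Arnt (-0.53 ± 0.12) and Ctss (-0.72 ± 0.13). The neighbours of Ctsd, Ifitm10 (0.15 ± 0.14) and Syt8 (0.03 ± 0.13), were not called, while Ctsd had a 9.28-fold lower signal. Both neighbours were dim: Ifitm10 had means of 5.26 (dendritic) and 5.11 (macrophage), and Syt8 of 5.12 and 5.08. These lie close to the array medians (4.79 to 4.96), so their lack of a call may reflect low signal. Rab38, a small GTPase of lysosome-related organelles beside Ctsc, was the higher one, at 1.43 ± 0.16 (adjusted p = 0.000259), while Ctsc was lower by -1.47 ± 0.22. Beside Lgmn, Rin3 was lower by -0.86 ± 0.16. These neighbours were chosen by position alone.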
